A study of Mus musculus with 18 samples.

Results

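Blocking methylation of lysine 36 of histone H3 with a mutant histone was compared with lowering the enzymes that write this mark, in 10 of the 18 RNA sequencing libraries of the series. All 10 came from C3H10T1/2 cells, a multipotent mesenchymal line derived from C3H mouse embryos, grown in DMEM with 10% fetal bovine serum and used at passage 10 to 15. One experiment compared cells stably expressing FLAG-HA-tagged H3.3 with lysine 36 changed to methionine (H3.3K36M, n = 2) with cells stably expressing tagged wild-type H3.3 (n = 2). The other compared parental cells given siRNAs that target Setd2, Nsd1 and Nsd2, all H3K36 methyltransferases (HMT siRNA, n = 3), with parental cells given a scramble siRNA (control siRNA, n = 3). Each histone was present as 1 stable line, and the siRNA cells carry no tagged histone. The libraries were chosen because these 4 groups stand in 1 deposited table, so that both responses and the difference between them could be fitted together. The question is which genes followed the mutant histone and the loss of the enzymes alike, and which followed only 1 of them.

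Methyl groups on H3 lysine 36 mark the bodies of transcribed genes and intergenic chromatin. Enzymes of the NSD family write the mono- and dimethylated forms, and Setd2 writes the trimethylated form. H3 carrying methionine at this position binds these enzymes and lowers the mark across the genome, and the mutation is found in chondroblastoma and other tumors of the mesenchymal lineage. C3H10T1/2 cells can be driven toward cartilage, fat and bone, so genes of these programs are a natural readout of either treatment.

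Levels are the authors' normalised estimated read counts per gene, which are comparable between libraries for 1 gene and not between genes of different length. A response is a difference of group means on the log2(value + 1) scale, and a value after ± is its standard error. The mutant response is H3.3K36M minus wild-type, the knockdown response is HMT minus control siRNA, and their difference is mutant minus knockdown response, so that a positive difference means a higher mutant response. A gene was called where its Benjamini-Hochberg adjusted p over 13186 tested genes was below 0.05. Intervals are 2 standard errors to either side of an estimate. Genes called and at least 2-fold changed in both responses in the same direction are termed shared. Mutant-only genes were called and at least 2-fold changed with the mutant, had a called difference of at least 2-fold in the same direction, and had a knockdown response between -0.50 and 0.50. Knockdown-only genes are the mirror image, and opposite genes were called and at least 2-fold changed in both responses in contrary directions. The classes were set from these responses, so their sizes and medians are descriptions.

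Depth ran from 13993307 to 56041798 estimated reads per library, and replicates of a group correlated at 0.990 to 0.996 across genes. The H3.3K36M libraries were the deepest, at 56041798 and 34022137, against 25322433 and 23343297 in wild-type libraries. Control siRNA libraries had 13993307 to 19346834 and HMT siRNA libraries 22406728 to 33107488. Genes above 0 numbered 16164 to 16524 in H3.3K36M and 14616 to 14644 in wild-type libraries. They numbered 14116 to 14350 in control and 14606 to 14927 in HMT siRNA libraries. The part of depth in rises from near 0 was not tested. Among genes with 1 to 20 estimated reads, 76.3 to 78.9% of values were whole counts in the H3.3 libraries and 84.3 to 85.2% in the siRNA libraries. Each response lies within 1 of these sides, whereas any level set between histone lines and siRNA cells crosses them. The labels do not say whether replicates were separate cultures, so p-values cover no more than how libraries of a group vary, perhaps for technical reasons. RNA came from bulk cultures, in which fewer cells of a type and less RNA per cell cannot be told apart. All 9 listed mesenchymal marker genes passed the filter on low values, and 3 of the 6 listed epithelial markers did, with a summed level of 271 to 298 in wild-type, 604 to 643 in H3.3K36M, 76.2 to 82.0 in control siRNA and 75.3 to 97.0 in HMT siRNA libraries, while Epcam was listed at 0 in all 10.

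The enzymes themselves separated the experiments. Setd2 was at 3596 and 3635 in wild-type, 3042 and 3172 in H3.3K36M, 3225, 3114 and 3401 in control siRNA and 1114, 1063 and 1224 in HMT siRNA libraries. Its HMT siRNA values lay below all others, and its response was -0.22 ± 0.06 with the mutant and -1.52 ± 0.05 with the knockdown. Whsc1, which encodes Nsd2, was at 2073 and 2047 in wild-type, 4327 and 4349 in H3.3K36M, 1592, 1565 and 1607 in control siRNA and 1036, 1019 and 1121 in HMT siRNA libraries. Whsc1 moved in contrary directions, by 1.07 ± 0.05 with the mutant and -0.59 ± 0.04 with the knockdown, so that the mutant cells had the highest level of this transcript and the knockdown cells the lowest. Nsd1 was at 4209 and 4225 in wild-type, 4422 and 4675 in H3.3K36M, 4770.4, 4392 and 5007 in control siRNA and 3227, 3189 and 3422 in HMT siRNA libraries. Nsd1 fell with the knockdown by 0.52 on the log2 scale and was not called with the mutant (0.11 ± 0.05, limma adjusted p = 0.0781). Among the 8 listed H3K36 methyltransferases, 4 fell with the knockdown and none rose, whereas with the mutant 1 rose and 2 fell, against 31.7% of all genes lower with the knockdown, 31.9% higher with the knockdown, 37.5% higher with the mutant and 33.3% lower with the mutant. Of the 17 demethylases and readers of the mark, 5 rose and 7 fell with the mutant, and 5 rose and 6 fell with the knockdown. H3f3a, one of the genes that encode H3.3, was at 17089.7 and 16864 in wild-type, 9673 and 10226 in H3.3K36M, 13067, 14005 and 13959 in control siRNA and 10356, 10472 and 10983 in HMT siRNA libraries, a response of -0.77 ± 0.04 with the mutant and -0.37 ± 0.04 with the knockdown. H3f3b, the other H3.3 gene, changed by -0.25 ± 0.04 with the mutant and 0.14 ± 0.03 with the knockdown. Whether these values hold reads of the tagged histone was not tested.

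Many genes moved in each experiment, and fewer moved the same way in both: 20% of all tested genes were called lower and 20.6% higher in both, and 8.43% were called in contrary directions. Of all tested genes, 70.8% were called with the mutant and 63.5% with the knockdown, and the responses differed from each other in 54.9%. At 2-fold or more, 1614 genes rose (12.2%) and 1077 fell (8.17%) with the mutant, 20.4% in all. With the knockdown 699 rose (5.3%) and 640 fell (4.85%), 10.2% in all. The split between directions depended on scaling and on the filter for the mutant: 60.0% of these mutant changes were rises. The share was 48.3% after quantile normalisation of the 10 libraries, 52.1% with a filter of at least 50, and 68.0% with no filter. Among the tested genes, 400 passed the filter on low values only through the H3.3K36M libraries and 63 only through the wild-type libraries. For the difference, 1304 genes were at least 2-fold higher with the mutant (9.89%) and 759 lower (5.76%), 15.6% in all, so 63.2% were higher. That share was 47.6% after quantile normalisation, 54.8% with the filter of 50 and 69.4% with no filter. The class rules placed 402 genes in the shared lower class (3.05%), 361 in the shared higher class (2.74%), 235 (1.78%) and 555 (4.21%) in the mutant-only lower and higher classes, and 52 (0.394%) and 102 (0.774%) in the knockdown-only lower and higher classes. A further 76 genes rose with the mutant and fell with the knockdown (0.576%) and 17 did the reverse (0.129%). The other 11386 genes met no rule, among them 686 of the 2063 genes whose responses differed by at least 2-fold.

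The larger of both responses was more often that to the mutant. Of the 1614 genes at least 2-fold higher with the mutant, 1290 (79.9%) also had a significantly larger mutant response, and 308 (19.1%) had no called difference. Of the 1077 genes lower with the mutant, 837 (77.7%) had the larger mutant response. Of the 699 genes at least 2-fold higher with the knockdown, 304 (43.5%) rose more with the knockdown, 184 (26.3%) rose more with the mutant, and 211 (30.2%) had no called difference. Of the 640 genes lower with the knockdown, 207 (32.3%) fell more with the knockdown and 243 (38.0%) fell more with the mutant. These shares follow in part from choosing each set by its own response.

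**Figure D1:**
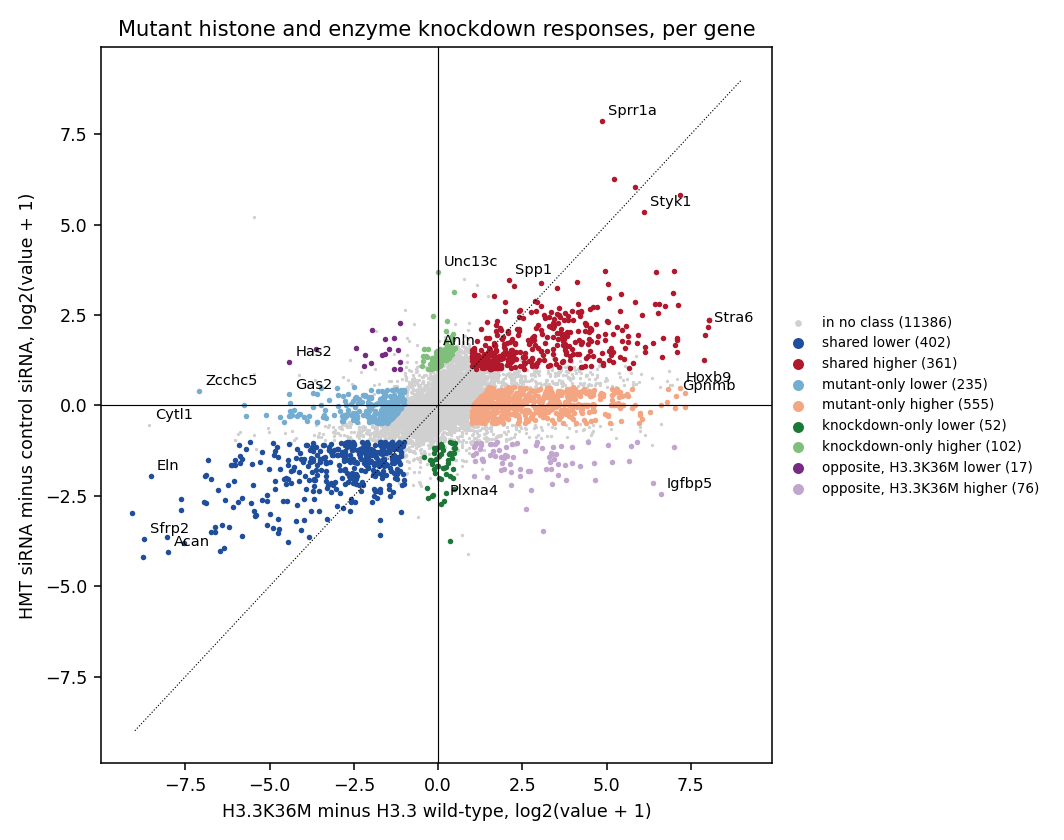
Knockdown response (HMT minus control siRNA, vertical axis) against mutant response (H3.3K36M minus wild-type H3.3, horizontal axis), both in log2, for each tested gene, coloured by class, with a dotted line where both are equal. Shared genes fill the lower left and upper right corners (402 and 361 genes), the 790 mutant-only genes lie along the horizontal axis, the 154 knockdown-only genes along the vertical axis, and the 93 opposite genes in the other corners.

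Genes that fell in both experiments were led by cartilage and connective tissue genes. The drop was significantly deeper with the mutant in 243 of 402 genes, where 27.4% of all genes had a significantly lower mutant response. The 402 shared lower genes had median responses of -2.57 with the mutant and -1.57 with the knockdown. In 185 of them the mutant drop was at least 2-fold larger by a called difference, and in 7 the knockdown drop was. In 106 the interval of the difference stayed within 2-fold. Over all 13186 tested genes, 2063 had a called difference of at least 2-fold. The mutant response was the larger in 1771 of them and the knockdown response in 292. The interval stayed within 2-fold in 9482 of all tested genes. Of the 28 tested cartilage genes, 26 fell with the mutant (33.3% of all genes), 25 fell with the knockdown (31.7%), and 23 had a significantly lower mutant response (27.4%). The median cartilage gene changed by -3.63 with the mutant and -1.66 with the knockdown, where the median of all genes was 0.02 and 0.00.

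Acan encodes aggrecan, the large proteoglycan of cartilage, and was at 433 and 427 in wild-type, 1.75 and 0 in H3.3K36M, 119.9, 104 and 118 in control siRNA and 5.53, 5.97 and 6.19 in HMT siRNA libraries. Both treated groups lay far below their own controls, and the response was -8.02 ± 0.34 with the mutant and -4.06 ± 0.28 with the knockdown, a called difference (limma adjusted p = 5.08e-07) whose size depends on the pseudocount. Sfrp2, a secreted Wnt modulator, was at 4544 and 4485 in wild-type, 7.45 and 12.2 in H3.3K36M, 999, 1088 and 1126 in control siRNA and 75.3, 70.9 and 101 in HMT siRNA libraries. The mutant drop was the deeper, with a difference of -5.04 ± 0.24, from a wild-type level above that of the control siRNA cells. Igf1, the insulin-like growth factor, was at 4223 and 4502 in wild-type, 67.5 and 85.7 in H3.3K36M, 4193, 4069 and 5088 in control siRNA and 362, 322 and 398 in HMT siRNA libraries. The wild-type and control siRNA libraries started at the same level, and the mutant libraries ended lower than the HMT libraries, a difference of -2.20 ± 0.17.

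Regulators and matrix genes of cartilage followed the same order. Lect1, the cartilage glycoprotein chondromodulin, was at 3363 and 3592 in wild-type, 33.8 and 38.8 in H3.3K36M, 3208, 3487 and 3435 in control siRNA and 624, 687 and 669.8 in HMT siRNA libraries, with a difference of -4.19 ± 0.09. Sox6, a partner of the chondrocyte regulator Sox9, changed by -6.73 ± 0.12 with the mutant and -2.03 ± 0.10 with the knockdown. Fgfr2, a growth factor receptor of skeletal progenitors, changed by -4.53 ± 0.10 with the mutant and -2.18 ± 0.08 with the knockdown. Fmod, the collagen-binding proteoglycan fibromodulin, was at 2535 and 2683 in wild-type, 23.2 and 41.0 in H3.3K36M, 108, 91.6 and 107 in control siRNA and 6.64, 3.73 and 7.22 in HMT siRNA libraries. Its wild-type level was far above that of the control siRNA cells, and the HMT siRNA libraries ended the lowest. Col9a2, a chain of cartilage collagen IX, fell by -4.08 ± 0.24 with the mutant and -3.45 ± 0.19 with the knockdown, and its difference was not called (limma adjusted p = 0.0933, interval -1.24 to -0.01). Cmtm5 was listed at 0 in both mutant libraries, against 443 and 417 in wild-type, and fell from 134, 173 and 169 to 6.64, 8.21 and 8.25 with the knockdown.

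Signalling and fat genes were also among the shared losses. The Notch targets Hey2 and Hey1 changed by -6.41 and -3.30 in Hey2 and by -4.46 and -1.64 in Hey1, mutant and knockdown in turn. Across the 26 tested Hedgehog, FGF and Notch genes, 13 fell and 8 rose with the mutant (33.3% and 37.5% of all genes). With the knockdown fewer of them fell (9) than rose (12), against 31.7% and 31.9%, and 8 fell in both (20%). The Wnt antagonist Frzb changed by -6.21 ± 0.16 with the mutant and -3.37 ± 0.13 with the knockdown. Of the 25 tested BMP and TGF-beta genes, 13 fell and 9 rose with the mutant (33.3% and 37.5% of all genes), 14 fell and 5 rose with the knockdown (31.7% and 31.9%), and 9 fell in both (20%). The BMP pseudoreceptor Bambi changed by -2.90 and -2.44 and the ligand Tgfb2 by -3.50 and -1.48, both further with the mutant. Of the 20 adipocyte genes, 12 fell and 5 rose with the mutant, 11 fell and 3 rose with the knockdown, and 8 fell in both, against the same shares of all genes. Cebpa, a transcription factor of fat cell differentiation, was at 1275 and 1361 in wild-type, 235 and 229 in H3.3K36M, 1002, 921 and 964 in control siRNA and 292, 283 and 285 in HMT siRNA libraries, and the treated groups ended at like levels. G0s2, an inhibitor of fat breakdown, changed by -7.64 and -2.89, and Dgat2, which makes triglyceride, by -3.33 and -1.59. Retinoid enzymes were split as a list, with 5 of 13 higher and 4 lower with the mutant, yet Cyp26b1, which degrades retinoic acid, and Dhrs3, which reduces retinal, fell in both, Cyp26b1 by -4.46 and -2.03 and Dhrs3 by -3.70 and -2.38.

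Some genes fell by almost the same factor from unlike starting levels. Mest, an imprinted hydrolase gene, was at 228 and 211 in wild-type, 58.3 and 56.8 in H3.3K36M, 3718, 3926 and 4097 in control siRNA and 1013, 1050.3 and 1115 in HMT siRNA libraries. Its 10 values spanned a wide range, with the control siRNA cells far above the wild-type histone line, and the responses were -1.91 and -1.88, with an interval of -0.21 to 0.15 for the difference. Hist1h1c, a linker histone gene, gave -1.75 and -1.69, with an interval of -0.22 to 0.10. The tendon glycoprotein gene Tnmd was one of 15 shared lower genes with a significantly larger knockdown drop (-1.90 and -2.50, difference 0.60 ± 0.10). A significantly higher mutant response was found in 27.5% of all genes. Of the 13 tendon and small leucine-rich proteoglycan genes, 11 fell with the mutant and 8 with the knockdown (33.3% and 31.7% of all genes).

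Replication-dependent histone genes fell more often than they rose. Of 35 tested, 20 fell and none rose with the mutant (33.3% and 37.5% of all genes). With the knockdown 13 fell and 3 rose (31.7% and 31.9%). Their summed level was 24681 to 25821 in wild-type and 14913 to 16218 in H3.3K36M libraries, and 4265 to 4728 in control and 1403 to 1579 in HMT siRNA libraries. Many of these genes have close copies, so the level of any single gene is uncertain.

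**Figure D2:**
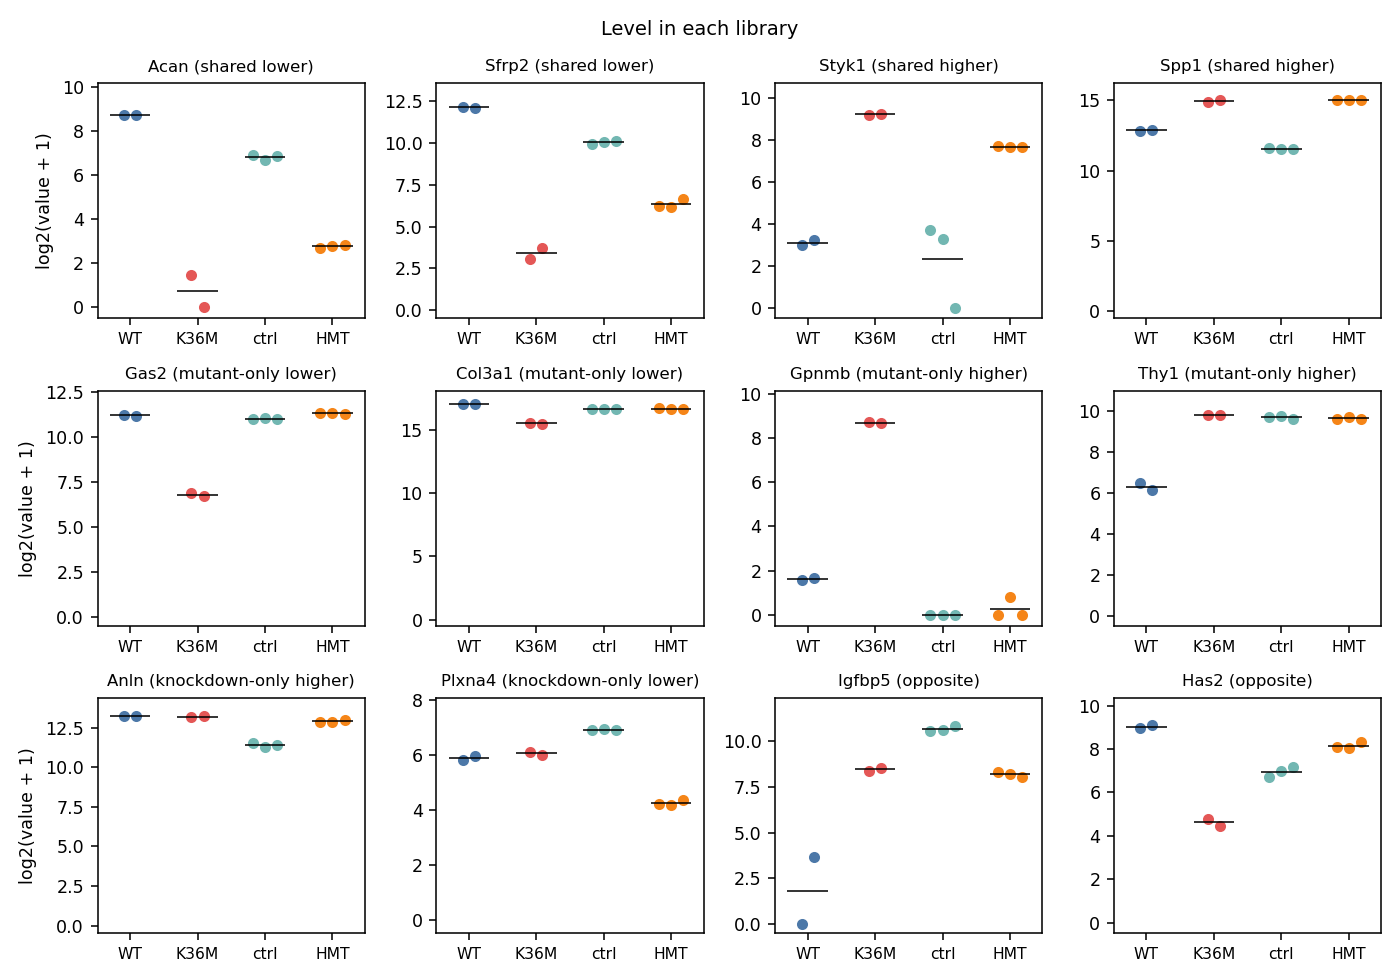
Levels of 12 genes in each of the 10 libraries, as log2(value + 1) of the normalised estimated count, by group (WT and K36M, histone lines; ctrl and HMT, siRNA cells), with a line at each group mean. Acan and Sfrp2 fell and Styk1 and Spp1 rose in both experiments, Gas2, Col3a1, Gpnmb and Thy1 are mutant-only genes, of which Gas2 also rose with the knockdown (0.30), Anln and Plxna4 are knockdown-only genes, and Igfbp5 and Has2 moved in contrary directions.

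Genes called higher in both experiments, at any size of change, included secreted cytokines, immediate early factors, cornified envelope genes and DNA replication genes. The shared higher class, at 2-fold, held 8 of 20 tested cytokine genes and 5 of 12 cornified envelope and simple epithelial genes. It held 1 of 17 AP-1 and immediate early genes and 4 of 48 S phase genes. The 361 shared higher genes had median responses of 2.84 with the mutant and 1.56 with the knockdown. Of these, 76 passed the filter on low values only through the H3.3K36M libraries and 5 only through the HMT libraries, so they could only be called as rises. In 145 genes the mutant rise was at least 2-fold larger by a called difference, in 3 the knockdown rise was, and in 87 the interval stayed within 2-fold. Over all 13186 tested genes, a called 2-fold difference had the larger mutant response in 1771 and the larger knockdown response in 292. The interval stayed within 2-fold in 9482 of all tested genes.

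Styk1, a kinase-like membrane protein gene, was at 6.95 and 8.53 in wild-type, 595 and 614 in H3.3K36M, 12.1, 8.78 and 0 in control siRNA and 208, 204 and 202 in HMT siRNA libraries. It was nearly absent from both control groups, and its difference of 0.77 ± 1.49 has a wide interval, -2.22 to 3.75, while with a pseudocount of 10 it was called at 1.37. Spp1, which encodes the matrix and signalling protein osteopontin, was at 7331 and 7749.7 in wild-type, 30984 and 34152 in H3.3K36M, 3132, 3019 and 3022 in control siRNA and 33949, 32822 and 34201 in HMT siRNA libraries. Both treated groups reached the same level from unlike controls, so the knockdown response was the larger, a difference of -1.35 ± 0.06. Col18a1, which carries the endostatin domain, rose alike (1.53 and 1.54, interval of the difference -0.15 to 0.13).

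Inflammatory signals were among the shared rises. Of 20 tested cytokine and chemokine genes, 14 rose with the mutant and 12 with the knockdown, against 37.5% and 31.9% of all genes, and 11 rose in both. Ptgs2, the inducible cyclooxygenase, was at 280.0 and 247 in wild-type, 2573 and 2779.8 in H3.3K36M, 699.6, 571 and 690.1 in control siRNA and 3818, 3717 and 4194 in HMT siRNA libraries. Ccl2, a monocyte attractant, was at 23.8 and 17.1 in wild-type, 691 and 734 in H3.3K36M, 36.4, 35.1 and 27.7 in control siRNA and 248, 276 and 277 in HMT siRNA libraries. In both genes every treated library lay above every control library. In either direction, treated and control libraries did not overlap in 11417 of 13186 genes with the mutant and 8752 with the knockdown. The related chemokine gene Ccl7 changed by 4.71 and 2.72. Fosl1, a subunit of the AP-1 factor, rose from 57.1 and 43.2 to 459 and 389 and from 57.1, 53.1 and 50.7 to 343, 339 and 422, with an interval of -0.07 to 0.70 for the difference. Across 17 AP-1 and immediate early genes, 11 rose with the mutant and 13 with the knockdown, against 37.5% and 31.9% of all genes. Interferon-stimulated genes moved less evenly. Of 39 tested, 22 rose and 9 fell with the mutant (37.5% and 33.3% of all genes). With the knockdown 22 rose and 4 fell (31.9% and 31.7%), and 16 rose in both (20.6%). Oas1a changed by 4.67 and 2.24 and Trim30a by 5.52 and 1.27.

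Several of the named genes rose further with the mutant. Grem1, a BMP antagonist, was at 350.4 and 399 in wild-type, 4033 and 4105 in H3.3K36M, 590.3, 513 and 519.8 in control siRNA and 2518, 2403 and 2467 in HMT siRNA libraries, and its responses of 3.44 and 2.19 differed by 1.25 ± 0.09. Igfbp4, an IGF-binding protein, was at 803 and 775 in wild-type, 22059 and 21086 in H3.3K36M, 774, 829 and 732 in control siRNA and 1869, 1864 and 1797 in HMT siRNA libraries. The mutant libraries alone were far above the rest, with the HMT libraries between them and both controls. Stra6, a retinol transporter, changed by 8.01 and 2.16, Efemp1, an elastic fibre protein, by 7.09 and 1.47, Msln, the surface antigen mesothelin, by 6.46 and 3.70, and Notum, a Wnt-inactivating enzyme, by 4.34 and 2.05. Spry1, a feedback inhibitor of FGF signalling, rose by 2.40 and 2.44, with an interval of -0.54 to 0.47 for the difference.

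Cornified envelope genes, which build the outer barrier of skin, were among the rises from near 0. Sprr2k was at 2.98 and 1.07 in wild-type, 153 and 173 in H3.3K36M, 0, 2.51 and 1.73 in control siRNA and 154, 134 and 129 in HMT siRNA libraries, and Sprr1a was listed at 0 in all control siRNA libraries, at 260.1, 215 and 226 in HMT siRNA, at 2.98 and 5.33 in wild-type and at 144 and 146 in H3.3K36M libraries. Of the 12 tested cornified envelope and simple epithelial genes, 9 rose with the mutant and 6 with the knockdown (37.5% and 31.9% of all genes). The placental prolactin family genes Prl2c3 and Prl2c2 also rose in both, Prl2c3 by 7.19 and 5.83 and Prl2c2 by 5.23 and 6.25. Sprr and Prl genes have close copies, so the share of reads given to each is uncertain.

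DNA replication genes rose in both, by more with the knockdown. Of 48 tested S phase genes, 44 rose with the mutant and 47 with the knockdown (37.5% and 31.9% of all genes). None fell, and 43 rose in both, against 20.6% of all genes. In 33 the knockdown response was significantly the larger and in 1 the mutant response was (27.4% and 27.5% of all genes). Mcm2, a subunit of the replicative helicase, rose by 1.16 and 1.21, with an interval of -0.19 to 0.08 for the difference. Cdt1, a licensing factor, rose by 1.11 and 1.42, and Chaf1a, a histone chaperone subunit, by 1.01 and 1.52.

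Genes of the amino acid stress response under the transcription factor ATF4 were mostly higher in both. Of 34 tested ATF4 and unfolded protein response genes, 25 rose and 4 fell with the mutant (37.5% and 33.3% of all genes), 31 rose and 1 fell with the knockdown (31.9% and 31.7%), and 24 rose in both (20.6%). The medians were 0.36 and 0.49. Psat1, an enzyme of serine synthesis, changed by 1.42 and 1.08. Promoter sequences were looked at for this list because ATF4 has a known binding motif, TGATGCAA, searched on both strands. In RefSeq sequences of GRCm38.p6, from 250 bases before to 50 after each annotated start, 31 of the 34 genes had a promoter and 6 held the motif (19.4%), against 0.895% of all 32851 promoters and 0.641% of tested genes with a promoter. At least 5 of those 6 genes rose in both experiments. Genes of a single chromosome were left out of this count and of the choice below. The pair below, chosen after their values were seen as the ones with the largest smaller response, show it in capitals, read on either strand. A match is a description of these letters and not of binding.

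Chac1, a glutathione-degrading enzyme, with responses of 0.97 and 0.74, motif centred at -189 from the start (chr2:119350992-119351291, plus strand):
Chac1: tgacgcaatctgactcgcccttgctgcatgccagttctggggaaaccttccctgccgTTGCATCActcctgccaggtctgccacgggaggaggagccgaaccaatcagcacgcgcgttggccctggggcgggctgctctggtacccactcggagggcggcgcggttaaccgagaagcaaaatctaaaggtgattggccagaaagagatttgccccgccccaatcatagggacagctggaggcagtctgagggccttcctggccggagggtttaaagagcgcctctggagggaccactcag
Slc7a11, the cystine transporter, with responses of 0.73 and 1.16, motifs centred at -62 and -43 (chr3:50443564-50443863, minus strand):
Slc7a11: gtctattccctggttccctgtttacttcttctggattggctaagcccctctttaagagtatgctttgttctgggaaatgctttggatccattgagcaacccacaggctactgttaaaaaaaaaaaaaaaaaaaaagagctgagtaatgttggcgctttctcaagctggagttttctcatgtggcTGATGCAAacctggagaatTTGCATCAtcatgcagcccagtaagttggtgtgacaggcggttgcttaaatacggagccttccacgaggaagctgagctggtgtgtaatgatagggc

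Genes that fell with the mutant and not with the knockdown included collagen and signalling genes that are well expressed in parental cells. The 235 mutant-only lower genes had median responses of -1.67 with the mutant and -0.12 with the knockdown. In 172 of them at least 1 siRNA group averaged 100 or more, and in 16 both siRNA groups were below 10. The knockdown response was itself called in 119, within the limit of 0.50 set by the class.

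Gas2, a cytoskeletal growth arrest gene, was at 2422 and 2351 in wild-type, 116 and 105 in H3.3K36M, 2099, 2158 and 2040.0 in control siRNA and 2608, 2622 and 2527 in HMT siRNA libraries. The mutant libraries lay far below all others, and the HMT siRNA libraries slightly above the control siRNA libraries, a knockdown rise of 0.30 ± 0.04 and a difference of -4.72 ± 0.07 (limma adjusted p = 1.27e-19). Lpar4, a receptor for lysophosphatidic acid, was at 1439 and 1423 in wild-type, 59.2 and 75.5 in H3.3K36M, 534, 469 and 560.5 in control siRNA and 515, 551 and 581 in HMT siRNA libraries, a difference of -4.48 ± 0.13. Zcchc5 led the genes named from the class with a difference of -7.48 ± 0.21, and was at 796 and 776 in wild-type, 3.95 and 5.75 in H3.3K36M, and 129, 147 and 129.7 against 155, 179.8 and 201 in the siRNA cells. Hsd11b1, which regenerates active glucocorticoid, fell from 974 and 939 to 21.5 and 33.1 while the knockdown response, from 396, 424 and 382 to 299, 366 and 329, was -0.28 ± 0.12.

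Structural collagens separated the experiments. Col3a1, a main fibrillar collagen of soft tissue, was at 134295 and 135467 in wild-type, 48139.9 and 46975 in H3.3K36M, 104666, 102197 and 103962 in control siRNA and 107325, 106464 and 105454 in HMT siRNA libraries. The siRNA groups lay close together and the mutant libraries lay below all others, with a mutant response of -1.50 ± 0.03. Of 18 collagen genes, 14 fell and 3 rose with the mutant (33.3% and 37.5% of all genes), whereas 7 fell and 9 rose with the knockdown (31.7% and 31.9%). A significantly lower mutant response was found in 16 (27.4% of all genes). After quantile normalisation 15 had a lower and 1 a higher mutant response, and the normalisation turned the sign of the median knockdown response of 0.10. The 5 mutant-only lower collagens were Col3a1 and, named after their values were seen, Col5a1, Col6a1, Col6a2 and Col4a5. Col1a1, the bone and skin collagen, was an exception in direction: it rose in both, at 193580.0 and 187293 in wild-type, 269903 and 238588 in H3.3K36M, 195771, 179726 and 165979 in control siRNA and 330468, 320614 and 329099 in HMT siRNA libraries, and its difference of -0.44 ± 0.08 became 0.60 after quantile normalisation. Postn, a matrix protein of periosteum and tendon, was at 8102 and 8399 in wild-type, 790.4 and 794 in H3.3K36M, 22538, 22393 and 23351 in control siRNA and 19227, 19677 and 18364 in HMT siRNA libraries, a difference of -3.12 ± 0.05.

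Signalling genes in this class included Jag1, a Notch ligand, at 4849 and 4609.8 in wild-type, 839.9 and 812 in H3.3K36M, 1804, 1674 and 1638 in control siRNA and 1807, 1795 and 1929 in HMT siRNA libraries. The siRNA libraries overlapped, and both were between the wild-type and mutant levels. Fas, a death receptor, changed by -1.51 and 0.42. Pax3, a developmental transcription factor gene, changed by -3.25 and 0.14. Some members differed between the cells at the start. Nog, a BMP antagonist, was at 248 and 209 in wild-type and 3.51 and 2.88 in H3.3K36M libraries and was listed at 0 in all 6 siRNA libraries. Cdkn2b, a cell cycle inhibitor, was at 3.97 and 8.53 in wild-type and 2.19 and 0 in H3.3K36M libraries, near 0 in both lines, but at 229, 253 and 249 in control and 240.1, 257 and 234 in HMT siRNA libraries.

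Genes that rose with the mutant and not with the knockdown were numerous, and many were at or near 0 without the mutant histone. The 555 mutant-only higher genes had median responses of 2.31 and 0.01. Of these, 154 passed the filter on low values only through the mutant libraries, 255 averaged below 10 in wild-type cells, and 191 were below 10 in both siRNA groups, whereas in 158 at least 1 siRNA group averaged 100 or more. The median gene of the class was at 13.0 in wild-type, 71.3 in H3.3K36M, 22.9 in control and 21.7 in HMT siRNA cells. The class held 360 genes without H3.3K36M replicate 1 and 375 without replicate 2, when the shared lower class held 391 and 382, and 157 of the 555 then no longer reached the filter.

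Gpnmb, a membrane glycoprotein of macrophages and bone cells, was at 1.99 and 2.13 in wild-type, 416 and 403 in H3.3K36M, 0, 0 and 0 in control siRNA and 0, 0.746 and 0 in HMT siRNA libraries. F13a1, a clotting factor subunit, was at 0.993 and 0 in wild-type, 219.6 and 229 in H3.3K36M, 0, 1.25 and 0 in control siRNA and 1.11, 0 and 0 in HMT siRNA libraries, and its difference of 7.35 ± 0.85 was the largest among the genes named from the class. In both genes the mutant libraries stood alone. Hoxb9, a body-axis regulator, was at 2.05 and 3.20 in wild-type, 540.0 and 497 in H3.3K36M, 1.52, 0 and 0 in control siRNA and 1.11, 2.24 and 0 in HMT siRNA libraries. Hoxb3, Hoxb6 and Hoxb8 rose with it in the mutant (5.35, 4.61 and 5.96) and met the same class rule; Hoxb6 was named after its value was seen. Over all 17 tested Hox genes 7 rose and 8 fell with the mutant, near the shares of all genes (37.5% and 33.3%). With the knockdown 1 rose and 4 fell (31.9% and 31.7%). Igf2bp3, an RNA-binding protein of fetal tissue, was at 27.8 and 19 in wild-type, 839.7 and 881 in H3.3K36M, 18.2, 22.6 and 22.5 in control siRNA and 26.6, 23.9 and 20.6 in HMT siRNA libraries, a difference of 5.00 ± 0.28.

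Other members were already expressed in the parental cells. Thy1, a surface marker of mesenchymal cells, was at 86.5 and 69.3 in wild-type, 889.8 and 881 in H3.3K36M, 834, 861 and 769.6 in control siRNA and 775, 821 and 769.7 in HMT siRNA libraries. The wild-type histone line alone was low, and the mutant line was close to both siRNA groups. Peg3, an imprinted zinc finger gene, was at 7.94 and 9.60 in wild-type, 642 and 650.1 in H3.3K36M, 301, 261 and 296 in control siRNA and 239, 229 and 191 in HMT siRNA libraries, and Tgfbi, a TGF-beta-induced matrix protein, was at 249 and 293 in wild-type, 1390.1 and 1451 in H3.3K36M, 1254, 1259 and 1380.2 in control siRNA and 1050.2, 1048 and 944 in HMT siRNA libraries. In these genes a mutant rise and a low wild-type line cannot be told apart from these libraries.

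Wnt genes more often had the higher response to the mutant. Of 23 tested, 12 rose and 7 fell with the mutant (37.5% and 33.3% of all genes), and 4 rose and 13 fell with the knockdown (31.9% and 31.7%). A significantly higher mutant response was found in 14 (27.5% of all genes) and a lower one in 6 (27.4%). Axin2, a feedback target of Wnt signalling, was at 2.98 and 3.20 in wild-type, 97.3 and 79.1 in H3.3K36M, 4.55, 5.02 and 0 in control siRNA and 0, 4.48 and 5.16 in HMT siRNA libraries, near 0 in every library but those of the mutant. Rspo1, a secreted Wnt enhancer named after its values were seen, changed by 3.82 and 0.27.

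Some immune and epithelial genes rose with the mutant. Psmb9, an immunoproteasome subunit, was at 30.8 and 27.7 in wild-type, 146 and 143 in H3.3K36M, 33.4, 31.4 and 34.6 in control siRNA and 32.1, 25.4 and 29.9 in HMT siRNA libraries, and its partner Psmb8 changed by 2.27 and -0.27. Cd74, the invariant chain of class II antigen presentation, was at 48.6 and 41.6 in wild-type, 556 and 535 in H3.3K36M, 146, 179 and 154 in control siRNA and 181, 179 and 161 in HMT siRNA libraries. Of the 5 tested macrophage markers, 4 rose with the mutant and 1 with the knockdown (37.5% and 31.9% of all genes). The summed level of the list was 125 to 134 in wild-type, 772 to 805 in H3.3K36M, 185 to 240 in control siRNA and 227 to 237 in HMT siRNA libraries. Ptprc, the pan-leukocyte marker CD45, was listed at 0 in all libraries but those of H3.3K36M, where it was at 3.51 and 5.03, and Emr1, the macrophage marker F4/80, was at 0.438 and 2.16 there. The part of other cells in these rises was not tested. Cdh1, an epithelial cadherin, was at 145 and 137 in wild-type, 556 and 603 in H3.3K36M, 72.8, 70.3 and 71.0 in control siRNA and 69.7, 86.5 and 72.2 in HMT siRNA libraries, and of the 3 tested epithelial markers 2 rose and 1 fell with the mutant and none was called with the knockdown.

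A line with another K36M histone, which took no part in the classes, was set beside these genes. In a second table, scaled separately by the authors, cells expressing H3.1K36M (n = 2) stood beside the same wild-type and H3.3K36M libraries. They share the wild-type reference, so the values are given side by side. Gas2 was at 3259 and 3182 in wild-type, 153 and 139 in H3.3K36M and 139.6 and 144 in H3.1K36M libraries. Col3a1 was at 180700.2 and 183394 in wild-type, 63465 and 62005 in H3.3K36M and 61763 and 62834 in H3.1K36M libraries. Gpnmb was at 2.67 and 2.89 in wild-type, 548 and 532 in H3.3K36M and 257 and 270.3 in H3.1K36M libraries. In these genes both mutant histones stood on the same side of wild-type H3.3. Axin2 was at 4.01 and 4.33 in wild-type, 128 and 104 in H3.3K36M and 123 and 136 in H3.1K36M libraries, Igf2bp3 at 37.4 and 25.8 in wild-type, 1107 and 1163 in H3.3K36M and 791 and 736 in H3.1K36M libraries, and Hoxb9 at 2.75 and 4.33 in wild-type, 712 and 655 in H3.3K36M and 121 and 112 in H3.1K36M libraries. Hoxb9 and Cd74 (228 and 215) were lower in H3.1K36M than in H3.3K36M cells but above wild-type. Has2, which makes hyaluronan, was at 667 and 749 in wild-type, 35.1 and 27.5 in H3.3K36M and 338 and 333 in H3.1K36M libraries, so its loss was much smaller in the H3.1K36M line.

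Genes that rose at least 2-fold with the knockdown and moved little with the mutant included many mitosis genes. The 102 knockdown-only higher genes had median responses of 0.16 with the mutant and 1.36 with the knockdown, and their median levels were 1056 in wild-type, 1168 in H3.3K36M, 369 in control siRNA and 978 in HMT siRNA cells. Of 39 tested mitosis and cytokinesis genes, all 39 rose with the knockdown (31.9% of all genes), 31 rose and 3 fell with the mutant (37.5% and 33.3%), and all 39 had the larger knockdown response (27.4%). The list median was 1.42 with the knockdown and 0.30 with the mutant, and 26 of the 39 were knockdown-only higher.

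Anln, a contractile ring protein, was at 9796 and 9430.0 in wild-type, 9252 and 9476 in H3.3K36M, 3009, 2492 and 2687 in control siRNA and 7526, 7488 and 8231 in HMT siRNA libraries. The 3 control siRNA libraries were the lowest and the histone lines the highest, with a difference of -1.55 ± 0.09 (limma adjusted p = 3.54e-10). Cenpf, a kinetochore protein, was at 4507 and 4255 in wild-type, 4465 and 4749 in H3.3K36M, 1309, 995 and 1113 in control siRNA and 3102, 2999.7 and 3429 in HMT siRNA libraries, with the same order. Ccna2, the cyclin of S and G2 phase, changed by -0.19 and 1.27, Nuf2, a kinetochore subunit, by -0.17 and 1.32, and Ccne2, a G1/S cyclin, by 0.15 and 1.36. Across the 102 genes the gap between the control groups (wild-type minus control siRNA) was larger than the gap between the treated groups (H3.3K36M minus HMT siRNA) in 90 (88.2%), against 43.3% of all genes. The median size of the gap was 1.63 between controls and 0.50 between treated groups. For the mitosis list the mean log2 level was 11.36 in wild-type and 11.65 in H3.3K36M, 9.71 in control siRNA and 11.10 in HMT siRNA cells. A response held down by a high starting level in the histone lines and a response particular to the knockdown cannot be told apart from these 4 groups.

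**Figure D3:**
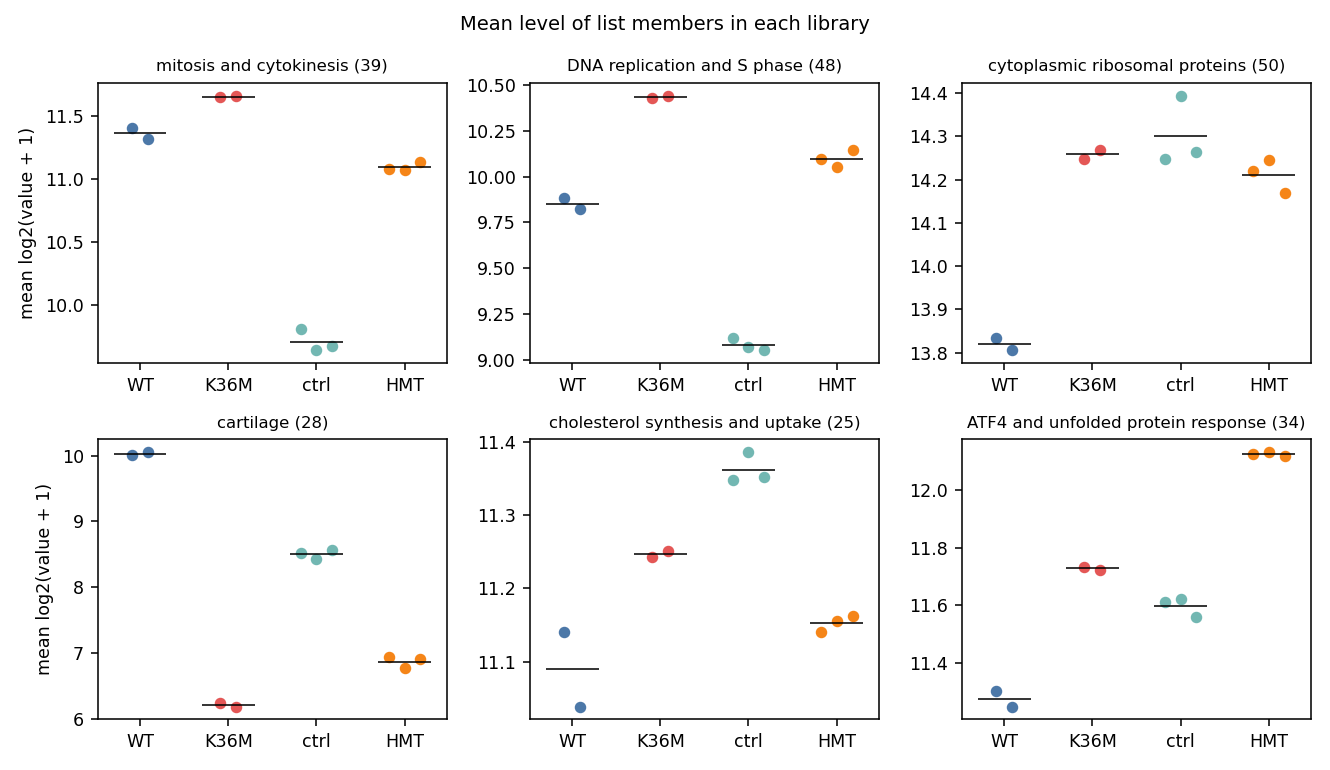
Mean log2(value + 1) of the genes of 6 lists in each of the 10 libraries (points), with a line at each group mean (WT and K36M, histone lines; ctrl and HMT, siRNA cells). The mitosis panel has its lowest points in the 3 control siRNA libraries, while the ribosomal protein panel has its lowest points in the pair of wild-type H3.3 libraries and the cartilage panel has its lowest points in the H3.3K36M libraries.

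Promoters of these genes are shown because genes of late cell cycle stages often share a CCAAT box, bound by NF-Y, and a cell cycle homology region (CHR), TTTGAA, near the start. Both were searched on both strands in the RefSeq windows described above. Of the 83 knockdown-only higher genes with a promoter, 39 held TTTGAA (47.0%), against 17.9% of all 32851 promoters, and 33 held it within 50 bases of the start (39.8%), against 5.14%. CCAAT stood in 44 (53%), against 37.4%, and both stood in 28 (33.7%), against 6.95%. The letters of the motifs overlapped in 1 of these promoters. Among the 60 members outside both cell cycle lists that had a promoter, 19 held TTTGAA (31.7%), 15 of them within 50 bases of the start (25%). CCAAT stood in 26 of these 60 (43.3%), against 39.2% of tested genes with a promoter. The S phase list, which rose in both experiments, had TTTGAA in 5 of 39 promoters (12.8%). CCAAT stood in 24 of these 39 (61.5%), a larger share than in the knockdown-only higher class. The E2F motif TTTCGCGC stood in 5 of 39 (12.8%), against 0.323% of all promoters and 0.641% of tested genes with a promoter.

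The 4 promoters below were chosen after their values were seen, as the mitosis genes of this class with both motifs, 1 annotated start and the largest differences. Genes of the chromosome left out of the ATF4 count were left out of this choice too. They run from 250 bases before to 50 after the start in GRCm38.p6 (RefSeq), and capitals mark CCAAT and TTTGAA on either strand. Cenpf (chr1:189688037-189688336, minus strand) has CCAAT centred at -130 and -69 and TTTGAA at 5. Kif4, a motor protein gene with responses of 0.27 and 1.60 (chrX:100625815-100626114, plus strand), has CCAAT at -150 and -3 and TTTGAA at 22. Ccnb2, a mitotic cyclin gene with responses of -0.14 and 1.09 (chr9:70421505-70421804, minus strand), has CCAAT at -85, -52 and -19 and TTTGAA at -164 and 7. Bub1b, a spindle checkpoint kinase gene with a difference of -1.22 ± 0.07 (chr2:118597961-118598260, plus strand), has CCAAT at -111 and TTTGAA at 43.
Cenpf: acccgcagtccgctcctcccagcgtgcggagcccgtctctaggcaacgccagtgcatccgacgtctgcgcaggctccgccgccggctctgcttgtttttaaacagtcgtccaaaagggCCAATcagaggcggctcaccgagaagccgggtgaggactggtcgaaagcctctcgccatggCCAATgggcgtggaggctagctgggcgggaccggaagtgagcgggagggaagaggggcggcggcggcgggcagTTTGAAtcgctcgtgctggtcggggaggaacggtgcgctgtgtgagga
Kif4: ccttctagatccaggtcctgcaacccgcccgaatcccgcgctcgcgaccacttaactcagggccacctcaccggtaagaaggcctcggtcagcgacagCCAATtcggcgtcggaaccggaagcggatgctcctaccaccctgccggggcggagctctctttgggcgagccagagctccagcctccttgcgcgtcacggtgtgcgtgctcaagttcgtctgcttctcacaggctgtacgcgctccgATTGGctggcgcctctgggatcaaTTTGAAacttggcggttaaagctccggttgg
Ccnb2: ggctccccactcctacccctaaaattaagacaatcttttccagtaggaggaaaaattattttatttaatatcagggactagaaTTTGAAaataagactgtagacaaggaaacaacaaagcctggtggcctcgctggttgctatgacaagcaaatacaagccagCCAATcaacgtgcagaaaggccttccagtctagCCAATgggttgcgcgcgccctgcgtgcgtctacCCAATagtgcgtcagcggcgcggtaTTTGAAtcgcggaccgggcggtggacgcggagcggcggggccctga
Bub1b: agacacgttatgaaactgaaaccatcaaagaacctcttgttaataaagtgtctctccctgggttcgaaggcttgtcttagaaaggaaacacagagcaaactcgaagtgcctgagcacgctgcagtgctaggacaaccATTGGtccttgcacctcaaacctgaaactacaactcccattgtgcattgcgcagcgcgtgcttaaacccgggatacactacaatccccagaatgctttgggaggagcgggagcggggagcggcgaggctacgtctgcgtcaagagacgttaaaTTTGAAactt

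**Figure D4:**
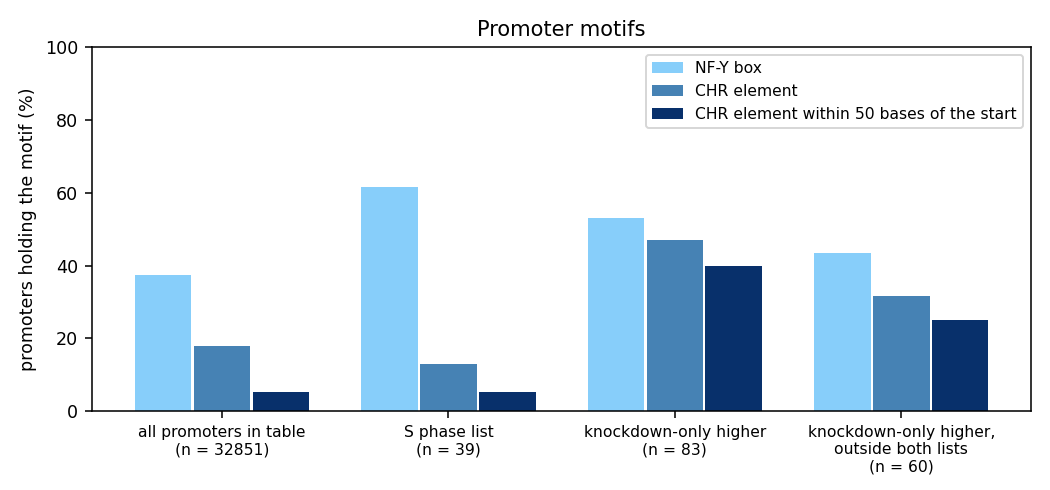
Share of promoters, in percent, that hold an NF-Y box (CCAAT), a CHR element (TTTGAA) or a CHR element within 50 bases of the start, for all RefSeq promoters and 3 gene sets. Knockdown-only higher genes held a CHR element near the start in 39.8% of promoters, against 5.14% of all.

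Outside mitosis, the class held genes of other roles. Unc13c, a synaptic vesicle priming gene, was at 6.38 and 2.13 in wild-type, 3.96 and 3.60 in H3.3K36M, 6.07, 12.5 and 15.6 in control siRNA and 136, 154 and 161 in HMT siRNA libraries, and its difference of -3.71 ± 0.54 was the largest among the genes named from the class. After quantile normalisation the mutant response of Unc13c was -1.88 and called (limma adjusted p = 5.26e-04), outside the band of the class. Mlh3, a DNA mismatch repair gene, was at 611 and 542 in wild-type, 430.1 and 499.9 in H3.3K36M, 440.1, 355 and 334 in control siRNA and 1109, 1095 and 1089.6 in HMT siRNA libraries. Every HMT siRNA library was above all others in both genes. Angpt1, a ligand of the endothelial receptor Tie2, was at 1572 and 1555 in wild-type, 1111 and 1176 in H3.3K36M, 388, 368 and 427 in control siRNA and 978, 998 and 1042 in HMT siRNA libraries, and Mal, a membrane raft protein, was at 459 and 429.8 in wild-type, 345 and 365 in H3.3K36M, 25.8, 27.6 and 22.5 in control siRNA and 62.0, 62.7 and 72.2 in HMT siRNA libraries. In these last genes the histone lines were above both siRNA groups throughout.

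Genes that fell with the knockdown and not with the mutant were few. The 52 members, among them the siRNA target Setd2, had median responses of 0.10 and -1.53. Plxna4, a semaphorin receptor, was at 54.6 and 61.9 in wild-type, 68.4 and 62.6 in H3.3K36M, 118, 120.5 and 118 in control siRNA and 17.7, 17.2 and 19.6 in HMT siRNA libraries. The HMT siRNA libraries were the lowest and the control siRNA libraries the highest, with a difference of 2.81 ± 0.24 (limma adjusted p = 9.44e-09). Adh1, an alcohol dehydrogenase that also oxidises retinol, was at 118 and 128 in wild-type, 135 and 152 in H3.3K36M, 123, 159 and 144 in control siRNA and 26.6, 20.9 and 28.9 in HMT siRNA libraries, a difference of 2.66 ± 0.23. Prickle1, a planar cell polarity protein, was at 89.4 and 83.2 in wild-type, 118 and 117 in H3.3K36M, 112, 154 and 175 in control siRNA and 32.1, 33.6 and 39.2 in HMT siRNA libraries. Abi3bp, a matrix protein, was at 162 and 182 in wild-type, 176 and 190.2 in H3.3K36M, 162, 156 and 204 in control siRNA and 45.4, 34.3 and 45.4 in HMT siRNA libraries. In Adh1 and Abi3bp the histone lines and control siRNA libraries were at like levels and the HMT siRNA libraries were lower. Rapsn, a receptor-clustering protein of the neuromuscular junction, changed by -0.16 and -2.47, and Tmem158 by 0.30 and -1.61. Complement component C3 met no class rule because it also fell with the mutant, but it fell far more with the knockdown, from 264, 317 and 367 to 34.3, 39.5 and 35.1, a response of -3.08 ± 0.11, against -0.59 ± 0.13.

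In 76 genes the mutant raised and the knockdown lowered the level, with median responses of 2.50 and -1.43. Many were low: 47 averaged below 10 in wild-type cells, where the median level was 3.93, and 17 were below 10 in both siRNA groups. Of the 76, 9 passed the filter on low values only through the H3.3K36M libraries and 6 only through the control siRNA libraries. Igfbp5, an IGF-binding protein of matrix, was at 0 and 11.7 in wild-type, 331 and 360.2 in H3.3K36M, 1471, 1511 and 1762 in control siRNA and 313, 288 and 259 in HMT siRNA libraries. The mutant and HMT siRNA libraries ended close together from contrary starts, and the difference was 9.06 ± 1.36, with an interval of 6.35 to 11.77. The spread of the joint fit is shared by all 4 groups, including the wild-type libraries at 0 and 11.7. With each experiment fitted alone, the knockdown response of Igfbp5 kept its call. The mutant response of 6.60 then lost its call (limma adjusted p = 0.0744). In the joint fit the knockdown response was at the limit of the test (limma adjusted p = 0.0441). It was not called with no filter (0.052), with a pseudocount of 0.5 (0.090), or without either H3.3K36M library or any 1 of the 6 siRNA libraries (0.0680 to 0.106), while the response itself stayed between -2.52 and -2.38. Enpp2, which makes lysophosphatidic acid, was at 76.4 and 62.9 in wild-type, 451 and 498 in H3.3K36M, 264, 294 and 278 in control siRNA and 44.3, 56.0 and 65.0 in HMT siRNA libraries, with no overlap between any control group and its treated group. Such a lack of overlap was found in 11417 of 13186 genes with the mutant and 8752 with the knockdown. Actg2, the smooth muscle gamma actin, was at 154 and 131 in wild-type, 1495 and 1384 in H3.3K36M, 162, 143 and 178 in control siRNA and 48.7, 59.7 and 52.6 in HMT siRNA libraries, a difference of 4.90 ± 0.17. The control groups were alike in Actg2 and the treated groups moved apart. Ptprz1, a receptor phosphatase, was listed at 0 in both wild-type libraries and was at 2.80 and 6.47 in H3.3K36M, 319, 339 and 299 in control and 96.3, 70.1 and 81.5 in HMT siRNA libraries. Its mutant rise rests on these few reads and was not called after quantile normalisation (0.48, limma adjusted p = 0.151), which takes it out of the class.

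The opposite higher class held 4 of the 23 listed Wnt genes and 1 of the 14 listed smooth muscle genes, Actg2. Nkd1, a feedback inhibitor of Wnt signalling, was at 55.6 and 46.9 in wild-type, 248 and 221 in H3.3K36M, 78.9, 104 and 84.7 in control siRNA and 19.9, 18.7 and 16.5 in HMT siRNA libraries. The other listed Wnt genes in this class, named after their values were seen, were Nkd2, a relative of Nkd1 (1.75 and -1.01), the antagonist Sfrp1 (1.90 and -1.59) and the enhancer Rspo3 (1.95 and -1.76). Of 14 tested smooth muscle genes, 8 rose and 3 fell with the mutant (37.5% and 33.3% of all genes). With the knockdown 4 rose and 7 fell (31.9% and 31.7%). The mutant response was the higher in 12 and the lower in none (27.5% and 27.4% of all genes). After quantile normalisation 8 were higher and 1 lower. In the opposite higher class the gap between the control groups was the larger in 44 of 76 genes (57.9%).

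The 17 genes of the reverse pattern, with median responses of -1.59 and 1.41, included Has2, at 495 and 554 in wild-type, 26.6 and 20.9 in H3.3K36M, 105, 125 and 144 in control siRNA and 270.0, 264 and 321 in HMT siRNA libraries. The wild-type line was above the siRNA cells and the mutant line below them. Adamts1, a matrix protease, was at 7987 and 7836 in wild-type, 2026 and 1973 in H3.3K36M, 16258, 15879 and 15996 in control siRNA and 36434, 36309.9 and 35213 in HMT siRNA libraries. Serpinb1a, an inhibitor of neutrophil proteases, was at 1768 and 1632 in wild-type, 611 and 629 in H3.3K36M, 1252, 1313 and 1378 in control siRNA and 3857, 3874 and 3859 in HMT siRNA libraries. Trp63, a regulator of stratified epithelium, was at 157 and 135 in wild-type, 9.21 and 12.9 in H3.3K36M, 129, 109 and 106 in control siRNA and 319, 353 and 339 in HMT siRNA libraries. In each of these 4 genes the libraries of a treated group did not overlap with those of its control. Over all 13186 tested genes this held in 11417 with the mutant and 8752 with the knockdown. Ch25h, which makes the signalling sterol 25-hydroxycholesterol, changed by -1.58 ± 0.15 with the mutant and 1.84 ± 0.12 with the knockdown.

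Beyond the classes, sets of abundant genes differed by small and even amounts. Of 50 cytoplasmic ribosomal protein genes, 48 rose and none fell with the mutant (37.5% and 33.3% of all genes). With the knockdown 2 rose and 35 fell (31.9% and 31.7%), and 48 had the higher mutant response (27.5%). The count was 46 after quantile normalisation. The medians were 0.44 with the mutant and -0.11 with the knockdown. Rps20, a protein of the small ribosomal subunit, was at 16024 and 15329.9 in wild-type, 26272 and 26354 in H3.3K36M, 27816, 31562 and 28189 in control siRNA and 27040.3, 27719 and 26606 in HMT siRNA libraries, so the wild-type histone line alone was low. Over the list the median gap was -0.48 between wild-type and control siRNA cells and 0.03 between H3.3K36M and HMT siRNA cells. Of 25 cholesterol synthesis and uptake genes, 6 rose and 12 fell with the mutant, 1 rose and 19 fell with the knockdown, and 16 had the higher mutant response, against the same shares of all genes. Insig1, a sterol feedback regulator, was at 4249 and 4377 in wild-type, 6148 and 6114 in H3.3K36M, 5230.3, 5386 and 5127 in control siRNA and 3710.0, 3678 and 3754 in HMT siRNA libraries, and moved in contrary directions by 0.51 and -0.50.

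**Figure D5:**
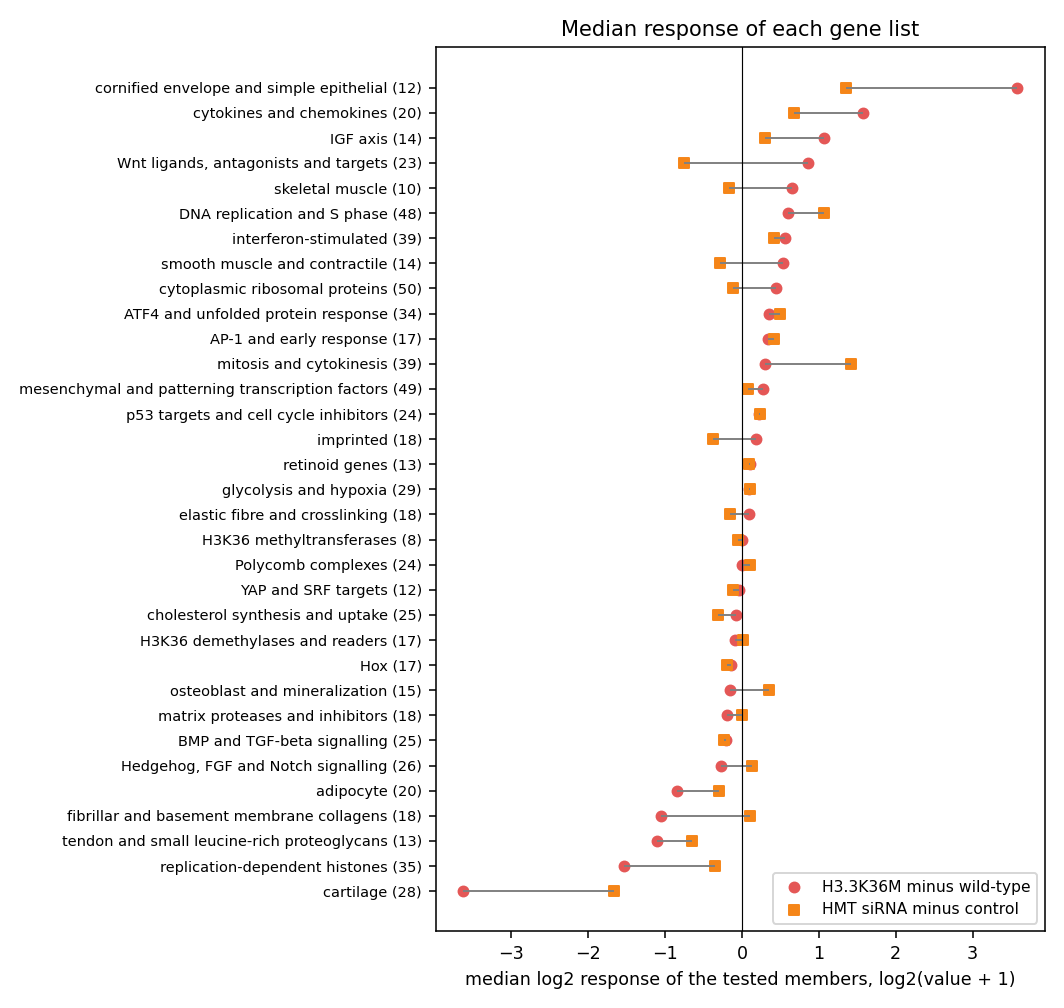
Median log2 response of the tested genes of each list to the mutant histone and to the knockdown. Cartilage genes have the lowest mutant median (-3.63) with a knockdown median of -1.66, mitosis genes have a knockdown median of 1.42 with a mutant median of 0.30, and ribosomal protein genes lie on contrary sides of 0 (0.44 and -0.11).

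Where a count for a list is 0, it was also 0 at an unadjusted p below 0.05 in limma. The other lists split between directions, and their counts are given as mutant higher and lower, then knockdown higher and lower, against 37.5% and 33.3%, then 31.9% and 31.7% of all genes. Elastic fibre and crosslinking genes, 18 tested, gave 9 and 8, then 5 and 8. Matrix proteases and inhibitors, 18 tested, gave 5 and 9, then 6 and 7. Osteoblast genes, 15 tested, gave 5 and 6, then 8 and 4. The 14 IGF pathway genes gave 10 and 3, then 6 and 3, and the 26 Hedgehog, FGF and Notch genes gave 8 and 13, then 12 and 9. Mesenchymal and patterning transcription factor genes, 49 tested, gave 25 and 13, then 17 and 15, and the 12 YAP and SRF targets gave 5 and 5, then 2 and 6. The 24 p53 targets and cell cycle inhibitors gave 12 and 7, then 13 and 8, and the 24 Polycomb genes gave 9 and 9, then 11 and 4. The 29 glycolysis and hypoxia genes gave 13 and 11, then 14 and 8, and the 18 imprinted genes gave 8 and 6, then 2 and 11. Skeletal muscle genes, 10 tested, gave 2 and 3, then 1 and 2. The 9 mesenchymal markers gave 3 and 5, then 4 and 2, the 3 endothelial markers gave 1 and 1, then 0 and 1, and the 3 neural and Schwann markers gave 1 and 2, then 0 and 1. Of 3 red cell markers only Hba-a1, a globin gene, was tested, and it rose in both, at 1.99 and 6.40 in wild-type, 664 and 631 in H3.3K36M, 3.04, 1.25 and 0 in control siRNA and 13.3, 11.9 and 14.4 in HMT siRNA libraries, while Hbb-b1 was listed at 0 in all 10 libraries.

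The starting levels of the histone lines and the parental cells bear on how a difference reads. Where the responses differed by at least 2-fold, the control groups were farther apart than the treated groups in 760 of 2063 genes (36.8%), against 43.3% of all genes. The control groups were the farther apart in all 39 mitosis genes, 43 of 48 S phase genes, 44 of 50 ribosomal protein genes and 25 of 35 histone genes, and in 13 of 28 cartilage genes, 7 of 23 Wnt genes, 6 of 20 cytokine genes and 3 of 17 Hox genes. These gaps compare tagged histone lines with parental cells and cross the shift in whole counts given with the depth, whose part in them was not tested.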

How the data were processed

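The values are a signal deposited by the authors: estimated counts per gene divided by 1 factor for each library, which the deposited file calls median normalisation. Bowtie 1.0.0, RSEM 1.2.12 and the mm9 build are named in the submitters' processing notes. The 10 libraries of 1 table were fitted together on log2(value + 1) with limma (version 3.58.1, under R 4.3.3), a scale that understates the change of low genes, with trend and robust options, two-sided, 6 residual degrees of freedom and Benjamini-Hochberg adjustment. Of 20325 genes, the 13186 with a value of at least 10 in at least 2 libraries were tested. In a simulation the difference of responses was fitted over 13186 genes, with changes placed only in genes with a mean level above about 100. Of 1 log2 or larger differences placed there, 87.9 to 100% were recovered, and 0.0308% of unchanged genes were called. Few genes were changed in the simulation, whereas 54.9% of tested genes had a called difference in the data. The adjusted threshold passes more unchanged genes where many genes change, so the 0.0308% does not carry over to the data. Recovery of changes in low genes was not simulated.

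Genes named are the siRNA targets and H3.3 genes, the 6 per class with the largest difference (for shared and opposite genes, the largest smaller response) among those with a group mean of at least 100, and per list the 4 with the largest difference and the 3 with the largest shared change. Others are said to be chosen after their values were seen. Members and lists were chosen with earlier results of these data known. Promoters came from RefSeq (GRCm38.p6), matched by symbol. A property was read only for gene sets of which at least 80% had a promoter. The tested genes as a whole, of which 79.2% had one, are given only as a background share. The table of H3.1K36M cells was used for levels alone, and the other table, of the same H3.3 libraries, was not used here. Figures and summaries used Python 3.11.15, pandas 2.3.3, numpy 2.4.6 and matplotlib 3.10.9. The normalised values are not whole reads, so a test on counts was not run.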

Additional observations from a re-analysis of the deposited data

Results flagged for a closer look

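Each value here met a test of the difference between both responses. That test found 1304 genes at least 2-fold higher and 759 at least 2-fold lower with the mutant than with the knockdown. Leading genes are given among those with a group mean of at least 100. The mutant-only classes hold 235 lower genes, led by Zcchc5 (-7.48), and 555 higher genes, led by F13a1 (7.35). The knockdown-only classes hold 52 lower genes, led by Plxna4 (2.81), and 102 higher genes, led by Unc13c (-3.71). In the opposite classes 17 genes fell with the mutant and rose with the knockdown, among them Ch25h (-3.43), and 76 did the reverse, among them Igfbp5 (9.06). No group has more than 3 libraries, so no library was tested as standing apart from its group.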

How the results depend on the processing

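A filter of 50 gave 995 genes at least 2-fold higher with the mutant, 813 with a difference of at least 2-fold higher, 330 mutant-only higher, 32 knockdown-only lower, and 10 and 36 opposite genes (mutant lower and higher). No filter gave 2556 at least 2-fold higher with the mutant and 1035 mutant-only higher. A pseudocount of 10 gave 465 at least 2-fold higher with the knockdown, 189 shared higher, and 9 and 23 opposite. Quantile normalisation gave 1149 with a difference of at least 2-fold lower, 410 mutant-only lower, 34 knockdown-only lower, and 30 and 49 opposite. It turned Col1a2 in the knockdown (-0.13), Col1a1 in the difference (0.60), and Vim with the mutant (0.57) and in the difference (0.57). A 1.5-fold rule with a band of 0.25 gave 770 shared lower, 777 shared higher, 95 knockdown-only lower, and 46 and 152 opposite. The filters change which genes are tested, and the other causes were not tested.

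Leaving out 1 library at a time gave 4107 to 5098 higher and 3844 to 4526 lower genes called with the mutant, 1154 to 1629 and 999 to 1080 at 2-fold. The knockdown gave 3847 to 4175 and 3857 to 4116, and 610 to 730 and 619 to 657 at 2-fold. The difference gave 2878 to 3702 and 3146 to 3706, and 909 to 1342 and 706 to 777 at 2-fold. Classes ran from 377 to 402 shared lower, 269 to 382 shared higher, 211 to 239 and 360 to 579 mutant-only lower and higher, 38 to 59 and 82 to 107 knockdown-only, and 12 to 18 and 55 to 82 opposite. Replicate numbers did not pair the libraries (deviations of same-numbered libraries correlated at 0.017 to 0.053). With the replicate number as a block, 3754 genes were higher and 3779 lower in the difference, and no class moved by over 1.5 times. Separate fits gave 400 shared lower and 338 shared higher. Over all settings 13340 values of named genes kept their side of the threshold, 214 lost it, 108 gained it and 4 turned. At this depth, low levels such as the zeros of Nog or Gpnmb have little precision.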
